A study of Mus musculus with 12 samples.

Results

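The 8 genes described here encode the core proteins of necroptosis (Ripk1, Ripk3 and Mlkl) and of pyroptosis with its inflammasomes (Nlrp3, Pycard, Casp1, Casp4 and Gsdmd). They were chosen by name as rows of the deposited count tables, and all 8 of 8 were present among 50433 rows for renal tubular epithelial cells (TECs) and 50434 rows for neutrophils (PMN). The libraries came from wildtype mice with acute kidney injury caused by ischemia-reperfusion injury (IRI), in which the renal pedicles are clamped and released. All mice compared here had IRI. They received either glutamine or vehicle, and cells were taken 24 hours after the procedure. There were 3 libraries for each treatment in each cell type, so 12 in all. The wildtype mice were male C57BL/6J of 8 to 12 weeks. Both pedicles were clamped for 35 minutes, glutamine was injected intravenously as the dipeptide alanyl-glutamine at 0.5 g per kg, and the vehicle was saline. The study's results text gives the injection as 4 hours after reperfusion, while its legend on the TEC gene list gives 15 minutes. TECs were sorted from kidney suspensions as CD45-negative, Prominin-1-positive cells. The PMN are labelled as blood PMN in the figures, and the sort that gave them is not given in the sources used here.

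Necroptosis and pyroptosis are forms of lytic cell death, in which the plasma membrane opens and the contents of the cell reach the tissue. In necroptosis, death receptor signals bring the kinases RIPK1 and RIPK3 together through their shared interaction motifs, and the nucleic acid sensor ZBP1 can engage RIPK3. RIPK3 phosphorylates the pseudokinase MLKL, and MLKL oligomers break the membrane. In pyroptosis, a sensor such as NLRP3 nucleates the adaptor ASC (gene Pycard), ASC recruits caspase-1, and caspase-1 cleaves gasdermin D, whose fragment forms pores, and matures the cytokines IL-1β and IL-18. The caspase encoded by mouse Casp4 senses cytosolic lipopolysaccharide and cleaves gasdermin D without that adaptor. In the injured kidney the tubular epithelium is known for necroptotic death, while inflammasome components are best known from infiltrating myeloid cells. The activation of all these proteins is set by cleavage, phosphorylation and assembly, none of which RNA shows.

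The genes lie on 7 mouse chromosomes (GENCODE M21 on GRCm38). Ripk1 is at chr13:34002363-34037147 on the plus strand, Ripk3 at chr14:55784995-55788865 on the minus strand and Mlkl at chr8:111311797-111338177 on the minus strand. Gsdmd is at chr15:75862327-75867408 on the plus strand, Nlrp3 at chr11:59541568-59566956 on the plus strand and Pycard at chr7:127989708-127993867 on the minus strand. Casp1 at chr9:5298517-5307265 and Casp4 at chr9:5308828-5336783 are neighbours on the plus strand, with 1562 bases between them. Exons of Ripk1 share 241 bases, 2.89% of its exonic length, with the opposite-strand gene Serpinb6a and 511 bases, 6.12%, with the processed pseudogene Gm17084 on the same strand. Exons of Pycard share 485 bases, 12.8% of its exonic length, with the opposite-strand gene Gm45205. How reads were assigned between such genes was not tested, and strand-specific counting is not given in the sources used here.

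Upstream sequence is shown for 4 of them, because Ripk1 and Mlkl were the members with the highest levels per length in TECs and because the neighbours Casp1 and Casp4 differed in how evenly the PMN libraries held them. Each run is the 250 bases before the first start listed by RefSeq on GRCm38.p6, written 5′ to 3′ on the gene's strand. The windows are chr13:34002113-34002362 (plus strand) for Ripk1, chr8:111338206-111338455 (minus strand) for Mlkl, chr9:5298267-5298516 (plus strand) for Casp1 and chr9:5308599-5308848 (plus strand) for Casp4. Capitals mark matches to the 10-letter NF-kB consensus on either strand, and overlapping matches run together.
Ripk1: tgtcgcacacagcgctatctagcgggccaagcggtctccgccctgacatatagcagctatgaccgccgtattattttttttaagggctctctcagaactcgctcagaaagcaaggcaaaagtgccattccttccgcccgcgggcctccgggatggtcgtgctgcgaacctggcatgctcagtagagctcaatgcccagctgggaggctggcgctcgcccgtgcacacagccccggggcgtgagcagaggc
Mlkl: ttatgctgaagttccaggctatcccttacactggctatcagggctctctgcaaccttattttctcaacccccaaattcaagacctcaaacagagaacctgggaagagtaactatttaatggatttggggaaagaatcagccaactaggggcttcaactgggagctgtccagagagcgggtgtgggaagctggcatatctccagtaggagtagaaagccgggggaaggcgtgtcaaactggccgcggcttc
Casp1: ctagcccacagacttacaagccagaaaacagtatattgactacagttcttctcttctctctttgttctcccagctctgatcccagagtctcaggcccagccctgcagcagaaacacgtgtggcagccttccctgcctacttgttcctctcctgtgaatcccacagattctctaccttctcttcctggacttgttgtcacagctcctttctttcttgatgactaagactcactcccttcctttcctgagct
Casp4: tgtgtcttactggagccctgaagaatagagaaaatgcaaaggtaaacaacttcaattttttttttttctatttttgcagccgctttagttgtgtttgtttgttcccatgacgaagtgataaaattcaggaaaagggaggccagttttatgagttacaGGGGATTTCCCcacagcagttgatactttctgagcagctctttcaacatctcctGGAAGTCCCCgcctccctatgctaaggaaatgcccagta

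Such windows were listed for 7 of the 8 genes. The NF-kB consensus was found in the windows of Casp4 and Nlrp3. In Casp4 the first of its 3 matches begins 93 bases before the start, overlaps the next match and is followed by one that begins 39 bases before the start. In Nlrp3 the match GGGAACCCCC begins 186 bases before the start. Of 32841 windows of this length over all genes, 7.25% held the NF-kB consensus. The interferon response element core GAAANNGAAA, searched on both strands, was in none of the 7 windows and in 2.98% of all windows. The STAT core TTCNNNGAA, searched on both strands, was in none of the 7 windows and in 7.02% of all windows. These are matches of letters, and no binding was measured.

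TEC libraries held 5397370 to 10223461 estimated counts and PMN libraries 20225246 to 21878446. Pairs of libraries correlated at 0.869 to 0.913 in TECs and at only 0.515 to 0.621 in PMN (log2 counts). Levels are given as CPM, counts scaled to a common library size, after TMM normalization within one cell type. The sort marker Prom1 was at 64.6 to 83.5 CPM in TECs and the proximal tubule gene Slc34a1 at 1298 to 2711 CPM, while Ptprc, which encodes CD45, was at 0.102 to 2.74 CPM. In PMN the neutrophil genes S100a8 (6607 to 28925 CPM) and Csf3r (577 to 1790 CPM) were high and Ly6g was present (49.2 to 178 CPM). The neutrophil markers Ltf (0 to 32.5 CPM) and Camp (0 to 51.4 CPM) were uneven, with both at 0 in vehicle replicate 1 and glutamine replicates 2 and 3. The PMN libraries also held genes of macrophages and antigen-presenting cells, with Cd74 at 4155 to 10743 CPM and C1qa at 287 to 2572 CPM. PMN vehicle replicate 2 stood apart with endothelial genes (Kdr at 619 CPM against 0 in the other 5 libraries), and PMN vehicle replicate 1 with tubule genes (Umod at 1025 CPM against 0.613 to 33.4 in the others). In bulk libraries a smaller share of a cell type and less RNA per cell cannot be told apart. The labels do not say that the libraries of a group came from separate mice, so p-values measure only the spread between these libraries.

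Both cell types held Ripk1. TECs also held Mlkl and only low levels of the inflammasome genes, and PMN held Casp4, Pycard, Gsdmd and Nlrp3 at 20.6 CPM or more in every library, Casp1 and Ripk3 at 30.3 CPM or more in 5 of 6 libraries, and Mlkl in 1 of 6. The tables were sequenced and scaled separately and differ in depth. The levels below therefore stand side by side, and no difference between the cell types was tested. To compare genes, each CPM value was divided by the merged exon length in kilobases. Over the 6 TEC libraries the level per length was 4.96 ± 0.855 CPM per kb for Ripk1 and 4.28 ± 2.29 for Mlkl (SD, n = 6). The libraries of these 2 genes overlapped, and every TEC library was higher for Mlkl than for the next gene, Casp4, at 1.01 ± 0.355 CPM per kb. Pycard (0.625 ± 0.528), Ripk3 (0.576 ± 0.558), Gsdmd (0.537 ± 0.366), Casp1 (0.273 ± 0.250) and Nlrp3 (0.146 ± 0.0699) followed, and each neighbour in this order overlapped the next.

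The order in PMN was different. Casp1 led at 55.4 ± 39.4 CPM per kb, before Casp4 at 44.2 ± 10.3, Pycard at 40.4 ± 14.8 and Ripk3 at 34.4 ± 28.0 (SD, n = 6). Gsdmd at 31.5 ± 30.0 and Nlrp3 at 28.4 ± 14.6 CPM per kb came next. Ripk1 at 4.18 ± 2.36 and Mlkl at 1.75 ± 4.29 CPM per kb came last. All neighbours in this order overlapped between libraries, while Casp4 and Pycard were above Ripk1 and Mlkl in every library. Ripk1 was thus the member with the closest mean levels per length in the 2 tables.

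**Figure D1:**
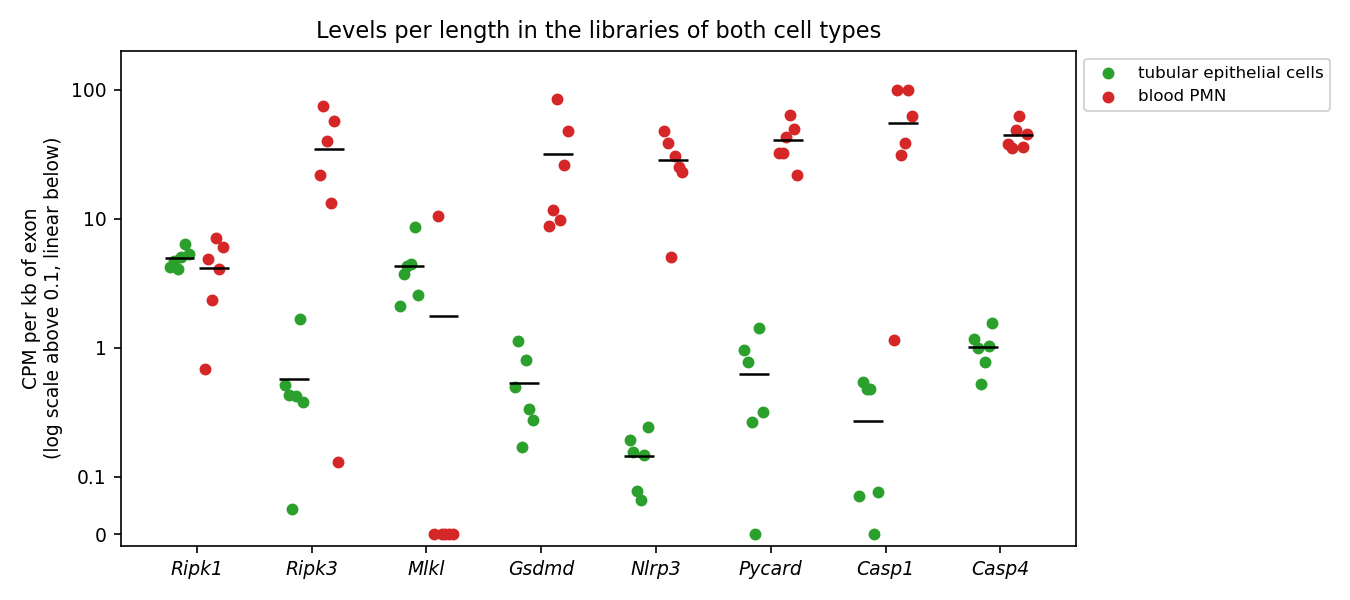
Level of each gene per kilobase of merged exon in the 6 TEC libraries and the 6 PMN libraries, with each point a library and the bar the mean of 6. The vertical axis is logarithmic above 0.1 and linear below it. The Ripk1 points of the 2 cell types cover overlapping ranges, the points of Casp1, Casp4 and Pycard lie above 1 in PMN, and Mlkl is at 0 in 5 PMN libraries.

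The question of the treatment comparison was whether glutamine given after IRI was accompanied by other levels of these genes. In TECs no member passed edgeR's quasi-likelihood test after Benjamini-Hochberg adjustment over 14734 genes: 0 of the 6 members tested, where 0% of all genes tested were called. The smallest adjusted p of a member was 0.496, for Ripk1. Nlrp3 and Casp1 did not pass the filter on low counts. At an unadjusted p below 0.05 there was also no member, against 12.7% of all genes. DESeq2, which gave 4 of the members an adjusted p, also called 0 of them, where it called 1.91% of the genes it gave one. Ripk1 was the 1 member whose glutamine and vehicle libraries did not overlap, as they did not for 18.8% of the genes tested and, in the direction of Ripk1, for 9.01%.

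Among the necroptosis genes, Ripk1, the kinase that joins death receptor signals to survival or death, was at 35.1, 39.4 and 33.8 CPM in vehicle replicates 3, 4 and 5 and at 41.9, 53.4 and 44.4 CPM in glutamine replicates 1, 2 and 3. Every glutamine library was above every vehicle library. The means of the vehicle and glutamine libraries were 36.1 ± 2.92 and 46.6 ± 6.06 CPM (SD, n = 3), with a fitted log2 fold change of 0.36 and a 95% interval of -0.10 to 0.83 (adjusted p = 0.496, edgeR). The interval reaches from 0.930-fold to 1.78-fold. The leukocyte gene Ptprc was also higher in every glutamine library, with 0.102 to 1.52 CPM in the vehicle and 1.81 to 2.74 CPM in the glutamine group, and so was the sum of 16 tubule markers, at 4170 to 5513 CPM with vehicle and 5600 to 7137 CPM with glutamine, with 14 of the 16 higher in the mean. The 10 genes with most counts took 19.2% to 22.9% of the counts with vehicle and 27.6% to 28.5% with glutamine, and predicted genes (Gm and Rik names) with olfactory and vomeronasal receptor genes took 17.4% to 23.3% and 26.3% to 30.8%. The part of these differences in the Ripk1 values was not tested. Serpinb6a and Gm17084, which share exonic bases with Ripk1, averaged 72.5 and 0 CPM over the TEC libraries, and Gm45205, which shares bases with Pycard, averaged 0.0400 CPM.

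Mlkl, the executioner of necroptosis, was at 4.83, 8.51 and 9.99 CPM in vehicle replicates 3, 4 and 5. With glutamine it was at 10.2, 19.7 and 5.92 CPM in replicates 1, 2 and 3. The groups overlapped, since glutamine replicate 3 lay below 2 of the vehicle libraries, and glutamine replicate 2 was the highest. The means were 7.78 ± 2.65 and 11.9 ± 7.04 CPM, with a log2 fold change of 0.60 and an interval of -0.43 to 1.63 (adjusted p = 0.618, edgeR). Without 1 library the log2 fold change ran from 0.048 without glutamine replicate 2 to 0.93 without glutamine replicate 3 (adjusted p = 0.397, edgeR), and with limma-voom it was 0.38.

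Ripk3, the kinase that activates MLKL, was near the counting limit in TECs. It was at 1.18, 0.985 and 0.102 CPM in vehicle replicates 3, 4 and 5 and at 0.961, 3.82 and 0.877 CPM in glutamine replicates 1, 2 and 3, which are 1 to 19 counts a library. Glutamine replicate 2 stood above the other 5 libraries, and those 5 overlapped. The log2 fold change was 1.25 with an interval of -0.96 to 3.47, so that neither a lower level nor one 11.04-fold higher is outside it. This was the widest interval among the necroptosis genes in TECs. Without glutamine replicate 2 the log2 fold change was 0.27, and without vehicle replicate 3 it was 1.71.

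Among the pyroptosis genes in TECs, Casp4 was the most abundant per length, and its libraries overlapped. It was at 4.34, 3.67 and 1.94 CPM in vehicle replicates 3, 4 and 5 and at 2.88, 3.82 and 5.81 CPM in glutamine replicates 1, 2 and 3 (log2 fold change 0.33, interval -0.88 to 1.54). Pycard, the adaptor, was at 3.65, 2.96 and 1.02 CPM with vehicle and at 0, 5.42 and 1.21 CPM with glutamine in the same order. Its lowest and its highest library were both glutamine libraries, and the log2 fold change was -0.26 (interval -2.72 to 2.20). Gsdmd, the pore-former, was at 1.18, 2.69 and 0.408 CPM with vehicle and at 1.92, 0.803 and 0.658 CPM with glutamine, which gave a log2 fold change of -0.33 (interval -2.31 to 1.65).

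Nlrp3 and Casp1 were near the floor of what these TEC libraries can show. Nlrp3, the sensor, had 2 to 9 counts a library. It was at 0.789, 0.627 and 0.306 CPM in vehicle replicates 3, 4 and 5 and at 0.240, 0.603 and 0.987 CPM in glutamine replicates 1, 2 and 3, so that both extremes were glutamine libraries. Casp1, the protease of the inflammasome, had 0 to 9 counts a library. It was at 0.0986, 0.806 and 0.713 CPM with vehicle and at 0.721, 0 and 0.110 CPM with glutamine, in the same order, and the groups overlapped. A count of 0, as in glutamine replicate 2 for Casp1 and in glutamine replicate 1 for Pycard, allows up to 3 counts, which is 0.269 to 0.603 CPM depending on the library. Without the filter on low counts both genes were tested, and neither passed.

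**Figure D2:**
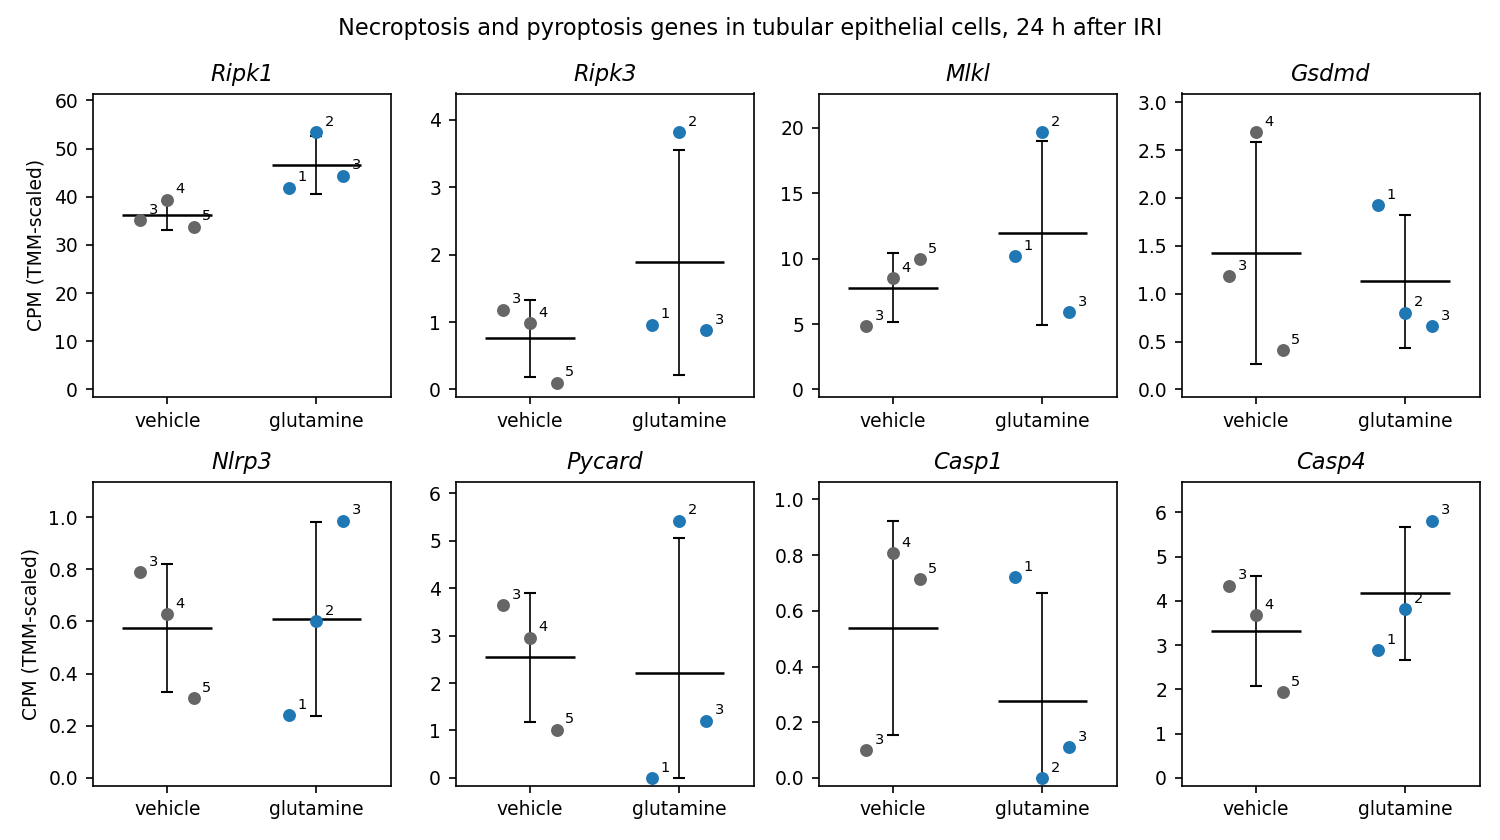
CPM of the 8 genes in TECs, each point a library labelled with its replicate number, with the mean as a horizontal line and the SD as a bar (n = 3, the lower bar ending at 0 where the SD exceeds the mean), vertical axes linear and different for each gene. The Ripk1 groups lie apart, glutamine replicate 2 is the highest library for Ripk1, Ripk3, Mlkl and Pycard, and the other groups overlap.

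Glutamine replicate 2 was the highest TEC library for 4 of the 8 genes, Ripk1, Ripk3, Mlkl and Pycard. It was also the shallowest library. The summed level of 14 neutrophil markers was 271 CPM in it and 105 to 255 CPM in the other 5 libraries, and that of 13 macrophage and monocyte markers was 158 CPM against 46.5 to 106 CPM. The haemoglobin gene Hba-a2 was at 3773 CPM in it and at 462 to 2565 CPM in the others. The part of RNA from these cells in the 4 values was not tested. Between the treatments, the neutrophil sums were 105 to 255 CPM with vehicle and 127 to 271 CPM with glutamine, and 13 of the 14 markers had the higher mean with glutamine. Leaving out glutamine replicate 2, the log2 fold change of Ripk1 was 0.25 (adjusted p = 0.815, edgeR).

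In PMN, too, 0 of the 7 members tested passed the edgeR test, where 0% of the 10130 genes tested were called, and no member had an unadjusted p below 0.05 (3.42% of all genes did). DESeq2 called 0 of the 7 members, where it called 2.73% of the genes it gave an adjusted p. The groups overlapped for every member, while for 10.5% of the genes tested they did not. Mlkl failed the filter on low counts. The adjusted p of every member tested was 1.0. The 95% interval of the difference was narrowest for Casp4, from 0.590-fold to 2.33-fold, and widest for Ripk3, from 0.0399-fold to 6.72-fold. These intervals leave room for differences of either sign. The 11 lymphocyte markers summed to 1.09 to 6.11 CPM with vehicle and to 33.5 to 69.6 CPM with glutamine, 5 of them had the higher mean with glutamine, and Cd3e, Cd8a, Nkg7 and Klrb1c were at 0 throughout. Ptprc, which neutrophils carry too, was at 317 to 569 CPM with vehicle and at 754 to 1150 CPM with glutamine. Neither pair of ranges overlapped, while the sums of 13 macrophage and monocyte markers did, at 12321 to 24326 CPM with vehicle and 12923 to 26811 CPM with glutamine. Their part in the PMN values of the members and partners was not tested.

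Mlkl was counted in 1 of 6 PMN libraries. It had 531 counts, or 24.2 CPM, in vehicle replicate 2 and 0 counts in vehicle replicates 1 and 3 and in all 3 glutamine libraries, where a count of 0 allows up to 0.137 to 0.158 CPM. Vehicle replicate 2 is also the library with the endothelial genes. Its Kdr was at 619 CPM and Emcn at 347 CPM, against at most 0.0476 CPM for either gene elsewhere, and Cdh5 was at 224 CPM against 0 to 16.7 CPM. The 10 endothelial and stromal markers summed to 1521 CPM in it and to 14.4 to 137 CPM in the other 5 libraries, with Col3a1, Pdgfrb and Dcn at 0 throughout. The part of endothelial RNA in the Mlkl value was not tested. Large differences between libraries were common in PMN. The SD over the 6 libraries exceeded the mean for 37.4% of the genes tested in PMN, against 1.86% in TECs. The TEC libraries, which summed to 240 to 378 CPM for these markers, held 4.83 to 19.7 CPM of Mlkl.

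**Figure D3:**
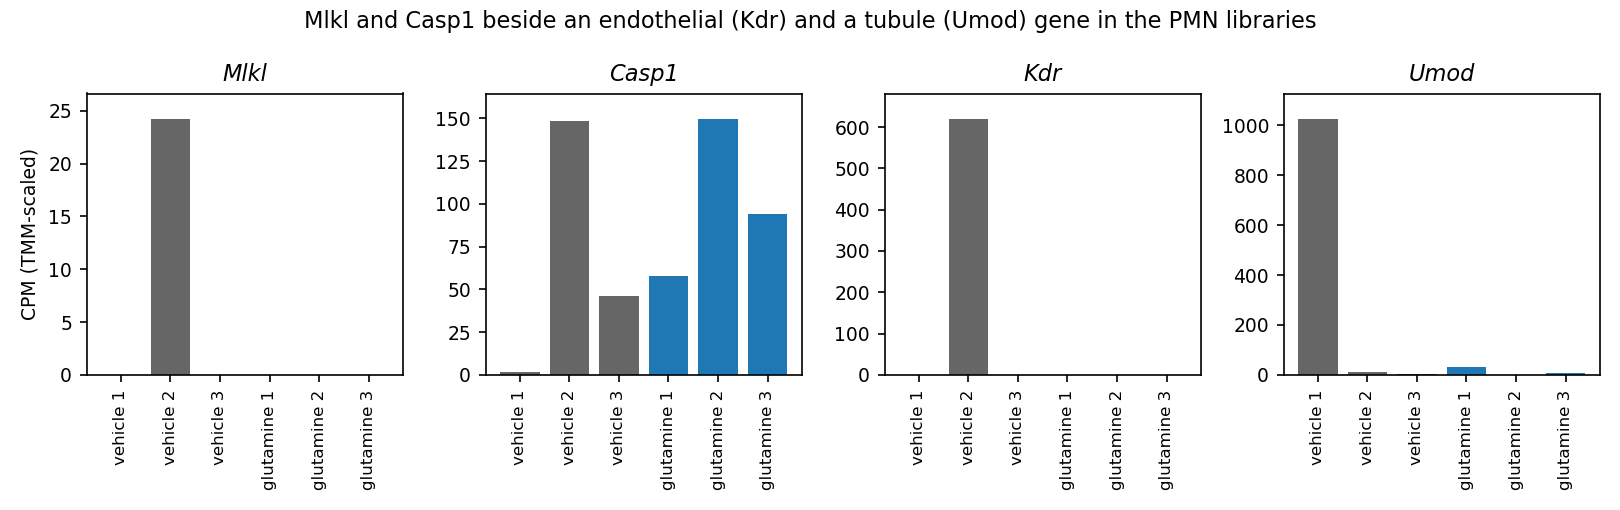
CPM of Mlkl and Casp1 beside the endothelial gene Kdr and the tubule gene Umod in each of the 6 PMN libraries (bars start at 0, grey for vehicle and blue for glutamine). Mlkl and Kdr are both seen in vehicle replicate 2 alone, and Casp1 is lowest in vehicle replicate 1, where Umod is highest.

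The 2 kinases of necroptosis varied from library to library in PMN. Ripk1 was at 5.71, 40.7 and 19.5 CPM in vehicle replicates 1, 2 and 3 and at 58.9, 34.2 and 50.5 CPM in glutamine replicates 1, 2 and 3. Its lowest 2 libraries were vehicle libraries and its highest 2 glutamine libraries, with 1 vehicle library above 1 glutamine library. The log2 fold change was 1.12 (interval -1.54 to 3.78). Ripk3 was at 50.2, 170 and 92.0 CPM with vehicle and at 30.3, 131 and 0.301 CPM with glutamine, in the same order. Glutamine replicate 3 held 6 counts of Ripk3 where vehicle replicate 2 held 3725. The log2 fold change was -0.95 (interval -4.65 to 2.75), and it ran from -2.79 without glutamine replicate 2 to -0.35 without glutamine replicate 3. With limma-voom it was -3.07.

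Casp1 and its neighbour Casp4 differed in their spread over the PMN libraries, a difference that was not tested. Casp1 was at 1.70, 148 and 46.3 CPM in vehicle replicates 1, 2 and 3 and at 58.0, 150 and 94.0 CPM in glutamine replicates 1, 2 and 3. The highest library was 87.8 times the lowest, which was vehicle replicate 1 with 34 counts. Casp4 was at 141, 131 and 182 CPM with vehicle and at 230, 133 and 168 CPM with glutamine, and its highest library was 1.76 times its lowest. The coefficient of variation over the 6 libraries was 71.1% for Casp1 and 23.2% for Casp4, against a median of 82.4% over all genes tested. Casp4 was the steadiest of the 8 genes in PMN. The log2 fold changes were 0.62 (interval -2.44 to 3.68) for Casp1 and 0.23 (interval -0.76 to 1.22) for Casp4, the narrowest interval in this cell type.

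Vehicle replicate 1, the lowest PMN library for Casp1, Ripk1 and Gsdmd and the highest for Nlrp3, was the one with tubule genes. The 16 tubule markers summed to 1458 CPM in it and to 38.5 to 142 CPM in the other libraries. Umod alone was at 1025 CPM of that sum, and Pax8 was at 116 CPM against 0 to 1.14 CPM. Prom1, also among the 16, was at 0.301 CPM, within the 0.283 to 3.69 CPM of the other libraries. Its neutrophil markers summed to 55745 CPM, within the 28367 to 79405 CPM of the other libraries. The part of tubule RNA in these values was not tested. Without this library the log2 fold change was 0.031 for Casp1 and 0.64 for Ripk1. Without vehicle replicate 2, the library with endothelial genes, it was 2.05 for Casp1 and 1.91 for Ripk1, and with limma-voom it was 1.96 for Casp1.

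Pycard was the next steadiest member in PMN, with a coefficient of variation of 36.6%. It was at 124, 123 and 162 CPM in vehicle replicates 1, 2 and 3 and at 241, 188 and 83.0 CPM in glutamine replicates 1, 2 and 3. The glutamine libraries held both the 2 highest and the lowest values (log2 fold change 0.33, interval -0.89 to 1.55). Nlrp3 was at 193, 157 and 20.6 CPM with vehicle and at 125, 103 and 93.2 CPM with glutamine, so that the vehicle libraries lay on both sides of the glutamine libraries (log2 fold change -0.21, interval -2.11 to 1.69). Gsdmd was at 21.0, 27.7 and 201 CPM with vehicle and at 23.1, 61.5 and 114 CPM with glutamine. Vehicle replicate 3 held the highest Gsdmd and the lowest Nlrp3 of the 6 libraries, and the log2 fold change of Gsdmd was -0.33 (interval -2.93 to 2.28).

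**Figure D4:**
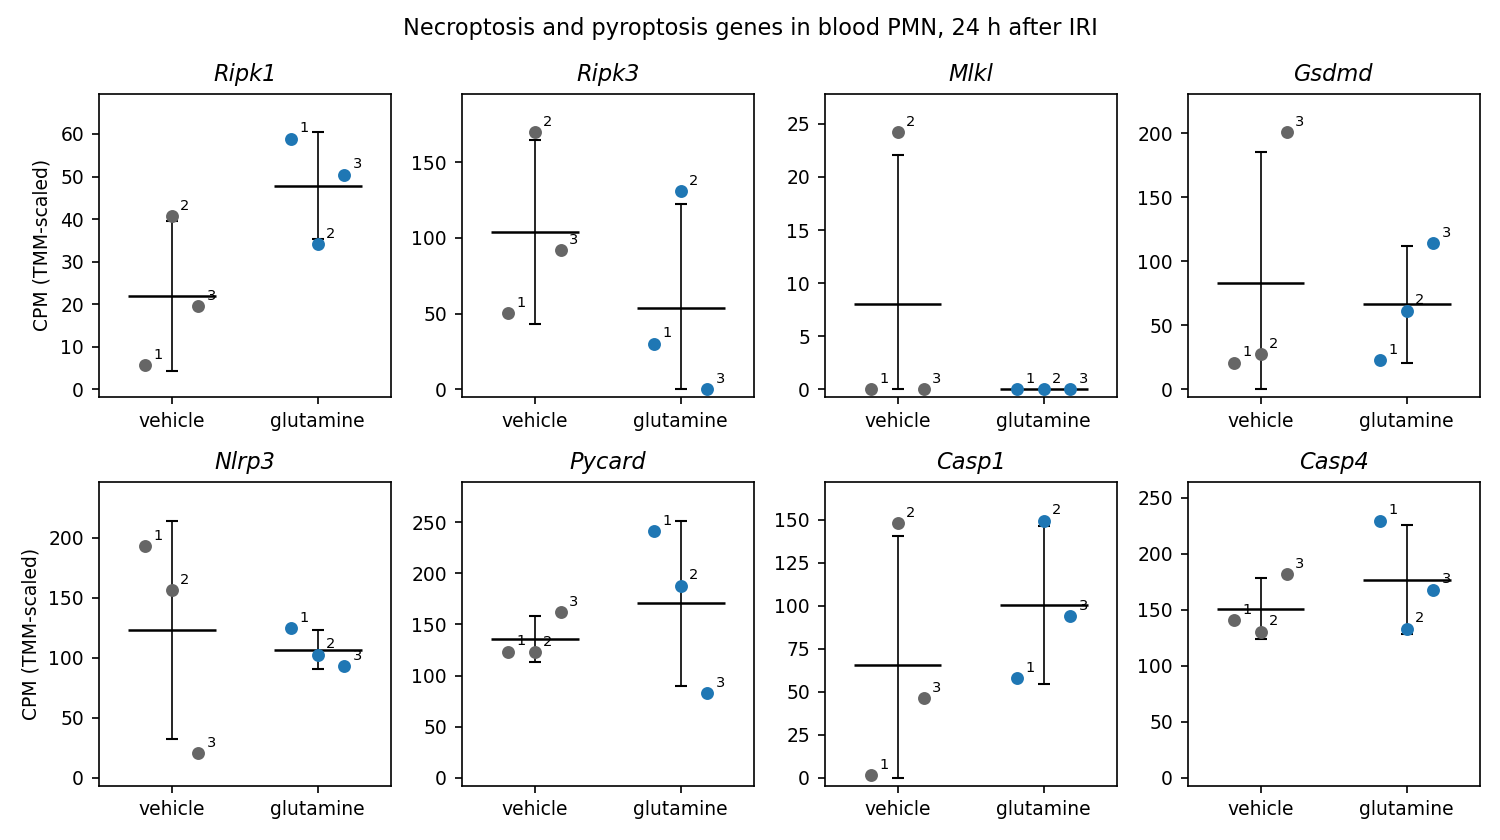
CPM of the 8 genes in PMN, each point a library labelled with its replicate number, with the mean as a horizontal line and the SD as a bar (n = 3, the lower bar ending at 0 where the SD exceeds the mean), vertical axes linear and different for each gene. Casp4 is the most even, Mlkl is above 0 in vehicle replicate 2 alone, and the groups overlap for every gene.

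Of the 5 members tested in both cell types, Ripk1 and Casp4 were fitted higher with glutamine in both, and Gsdmd lower in both. The log2 fold changes were 0.36 in TECs and 1.12 in PMN for Ripk1, 0.33 and 0.23 for Casp4, and -0.33 and -0.33 for Gsdmd. Ripk3 was at 1.25 in TECs and -0.95 in PMN, and Pycard at -0.26 and 0.33. For 3 of the 5 genes the sign turned or nearly vanished without a single library. Gsdmd was at 0.50 in TECs without vehicle replicate 4 and at 1.44 in PMN without vehicle replicate 3, and Casp4 was at 0.0053 in TECs without glutamine replicate 3 and at -0.030 in PMN without glutamine replicate 1. Pycard was at 0.35 in TECs without glutamine replicate 1, at 0.039 without glutamine replicate 3 and at 0.086 without vehicle replicate 3, and at -0.027 in PMN without glutamine replicate 1. None of these values was told apart from 0. The median over the members tested was 0.35 in TECs (6 genes) and 0.23 in PMN (7 genes), beside 0.01 and 0.00 over all genes tested.

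**Figure D5:**
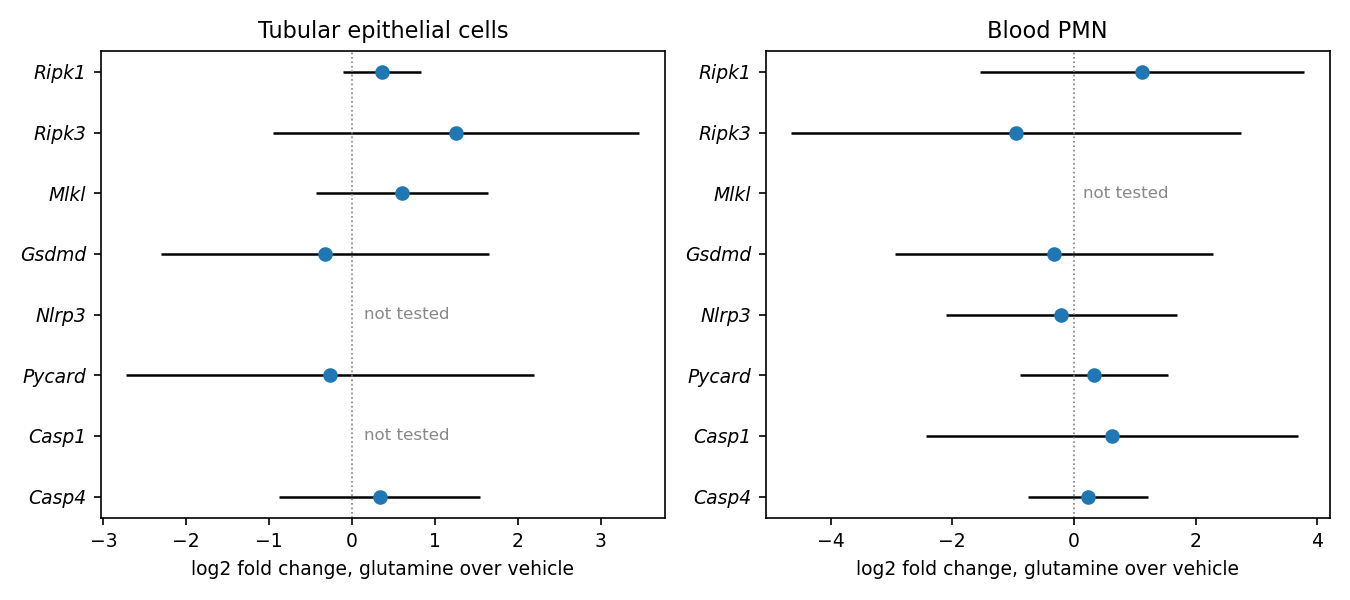
Fitted log2 fold change of each gene with its 95% interval (glutamine over vehicle, edgeR), for TECs and PMN, with the dotted line at no difference and genes that failed the low-count filter marked as not tested. Every interval includes 0, and the Ripk1 interval in TECs, from -0.10 to 0.83, is the narrowest.

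The partners that feed necroptosis were measured with a list of 28 genes, of which 26 were analysed. In TECs all 26 were tested, 11 were fitted higher and 15 lower with glutamine, and none passed the adjusted test (median log2 fold change -0.16). At an unadjusted p below 0.05 there was 1 gene, where 12.7% of all genes tested had such a p, and 3 did not overlap, where 18.8% of all genes did not. The gene with the smallest p in the upward direction was Tnip1, which restrains NF-kB and death signalling with the product of Tnfaip3, and which averaged 28.6 ± 1.29 CPM in the vehicle and 48.1 ± 11.7 CPM in the glutamine libraries (log2 fold change 0.75, unadjusted p = 0.00917, adjusted p = 0.252, edgeR). Its groups did not overlap, and it was that 1 gene. In the downward direction it was Tnfrsf1a, the TNF receptor that starts the pathway, at 177 ± 43.1 and 130 ± 12.8 CPM (log2 fold change -0.45, adjusted p = 0.432, edgeR), and its groups overlapped. Without 1 library the log2 fold change ran from 0.54 to 0.89 for Tnip1 and from -0.63 to -0.28 for Tnfrsf1a, whose value nearest 0 was without vehicle replicate 4.

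Other genes fixed for this list had overlapping groups in TECs. Cflar, the caspase-8 brake, was at 1003 ± 134 CPM with vehicle and 756 ± 264 CPM with glutamine. Casp8, which cleaves RIPK1 and RIPK3, was at 57.1 ± 14.3 and 60.2 ± 11.2 CPM, and Fadd, its adaptor, at 16.5 ± 5.99 and 12.5 ± 5.21 CPM. Birc3, a ubiquitin ligase of RIPK1, was at 28.5 ± 2.55 and 26.8 ± 7.39 CPM. Zbp1, the nucleic acid sensor that engages RIPK3, was at 0.798 ± 0.624 and 1.41 ± 0.805 CPM, with a vehicle mean of 0.484 CPM without vehicle replicate 5.

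In PMN 23 necroptosis partners were tested, 13 fitted higher and 10 lower, and none passed the adjusted test (median log2 fold change 0.10). At an unadjusted p below 0.05 there were 2 genes, Cflar and Birc3, where 3.42% of all genes had such a p, and 3 did not overlap, where 10.5% of all genes did not. The smallest p in the upward direction belonged to Cflar, at 153 ± 25.7 CPM with vehicle and 377 ± 190 CPM with glutamine, and its groups did not overlap (log2 fold change 1.30, unadjusted p = 0.0215, adjusted p = 1.0, edgeR). Without glutamine replicate 1, its highest library at 596 CPM, the log2 fold change of Cflar was 0.79 (unadjusted p = 0.0901, edgeR). Birc3 did not overlap either, at 279 ± 63.3 and 590 ± 273 CPM. The smallest p in the downward direction was that of Cyld, the deubiquitinase that frees RIPK1, at 145 ± 59.8 and 59.2 ± 27.9 CPM (log2 fold change -1.29, adjusted p = 1.0, edgeR), and again the groups did not overlap. Its log2 fold change ran from -1.64 to -0.96 without 1 library. Tnfrsf1a was at 338 ± 85.4 and 331 ± 90.5 CPM, Casp8 was at 40.3 ± 12.6 and 59.8 ± 31.8 CPM, and Zbp1 at 22.7 ± 20.7 and 26.9 ± 25.06 CPM. The means of Zbp1 were 13.8 CPM in either group without its highest library, vehicle replicate 3 or glutamine replicate 2. Fadd was at 0 to 1.61 CPM and was not tested.

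Of 34 partners of pyroptosis written down, 33 were analysed and 20 tested in TECs, 14 fitted higher and 6 lower, with none past the adjusted test (median log2 fold change 0.14). At an unadjusted p below 0.05 there were 3 genes, all higher (Nlrc4, Nlrp6 and Gbp3), where 12.7% of all genes had such a p, and 2 did not overlap, where 18.8% of all genes did not. Nlrc4, the sensor that recruits caspase-1 for bacterial flagellin, had the smallest p upward. It was at 7.99, 8.60 and 14.4 CPM in vehicle replicates 3, 4 and 5 and at 21.4, 18.3 and 18.1 CPM in glutamine replicates 1, 2 and 3, so that the groups did not overlap (log2 fold change 0.90, unadjusted p = 0.0159, adjusted p = 0.287, edgeR). Ptprc did not overlap in TECs either, at 0.102 to 1.52 CPM with vehicle and 1.81 to 2.74 CPM with glutamine. The mean was higher with glutamine for 13 of 14 neutrophil and 10 of 13 macrophage and monocyte markers, although the sums overlapped. The part of leukocyte RNA in the Nlrc4 values was not tested. Nek7, the kinase that NLRP3 needs, had the smallest p downward, at 80.8 ± 17.5 and 67.0 ± 7.26 CPM (log2 fold change -0.27, adjusted p = 0.639, edgeR). Without 1 library the log2 fold change ran from 0.74 to 1.21 for Nlrc4 and from -0.41 to -0.099 for Nek7, whose value nearest 0 was without vehicle replicate 3.

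The cytokines matured by caspase-1 were low in TECs. Il1b was at 4.58 ± 5.28 and 11.8 ± 7.34 CPM, Il18 at 2.67 ± 0.988 and 2.52 ± 2.86 CPM, and the receptor antagonist Il1rn at 2.36 ± 1.22 and 2.18 ± 1.79 CPM. In vehicle replicate 3 and glutamine replicates 1 and 2 Il1b was at 10.7, 15.7 and 16.3 CPM, against 1.12 to 3.29 CPM elsewhere. The neutrophil gene S100a8 was at 68.1, 42.5 and 107 CPM in those libraries and at 6.83 to 20.6 CPM elsewhere. The part of neutrophil RNA in the Il1b values was not tested. The vehicle mean of Il1b was 1.55 CPM without vehicle replicate 3, the glutamine mean of Il18 0.961 CPM without glutamine replicate 2 and 3.77 CPM without glutamine replicate 3, and that of Il1rn 1.42 CPM without glutamine replicate 1. Gsdme, a gasdermin cleaved by caspase-3, was at 11.2 ± 0.822 and 8.87 ± 1.91 CPM. Ninj1, which ruptures the membrane of lytic cells, was at 93.9 ± 23.7 and 94.3 ± 12.8 CPM. Irf2, a transcription factor known to drive Gsdmd, was at 15.7 ± 7.64 and 12.7 ± 6.09 CPM, Aim2, a DNA sensor, at 0.698 ± 0.296 and 2.06 ± 1.57 CPM, and Tlr4, the lipopolysaccharide receptor, at 1.28 ± 0.750 and 1.08 ± 0.427 CPM. Without glutamine replicate 1 the glutamine mean of Aim2 was 1.23 CPM, and without vehicle replicate 4 the vehicle mean of Tlr4 was 0.851 CPM.

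In PMN 23 pyroptosis partners were tested, 13 fitted higher and 10 lower, and none passed (median log2 fold change 0.27). At an unadjusted p below 0.05 there was 1 gene, Il1b, where 3.42% of all genes had such a p, and 3 did not overlap, where 10.5% of all genes did not. Il1b had the smallest p upward. It was at 7953, 5860 and 7997 CPM in vehicle replicates 1, 2 and 3 and at 9807, 9635 and 8986 CPM in glutamine replicates 1, 2 and 3, and the groups did not overlap (log2 fold change 0.38, unadjusted p = 0.0422, adjusted p = 1.0, edgeR). Without vehicle replicate 2, its lowest library, the log2 fold change of Il1b was 0.24 (unadjusted p = 0.0881, edgeR). Nek7 had the smallest p downward, at 21.1, 162 and 24.5 CPM with vehicle and at 1.32, 0.0471 and 7.93 CPM with glutamine (log2 fold change -4.48, adjusted p = 1.0, edgeR), without overlap. The highest of these values is in vehicle replicate 2, the library with endothelial genes, and without it the log2 fold change was -2.88, while it was -6.67 without glutamine replicate 3. Il1rn was at 860 ± 137 and 1258 ± 474 CPM, Il18 at 13.2 ± 11.5 and 19.5 ± 3.47 CPM, and Ninj1 at 544.2 ± 103 and 655 ± 107 CPM. Gsdme was at 56.0 ± 30.9 and 20.7 ± 13.2 CPM, Irf2 at 74.8 ± 30.6 and 83.2 ± 65.6 CPM, Tlr4 at 58.4 ± 46.3 and 28.9 ± 33.5 CPM, Nlrc4 at 17.0 ± 28.6 and 15.4 ± 13.3 CPM and Aim2 at 8.74 ± 9.94 and 12.9 ± 16.8 CPM, with vehicle first and overlapping groups. Single libraries set several of these means. The vehicle mean of Nlrc4 was 0.520 CPM without vehicle replicate 3, and its glutamine mean was 9.68 CPM without glutamine replicate 1. The vehicle mean of Aim2 was 3.33 CPM without vehicle replicate 3 and 13.1 CPM without vehicle replicate 1, and its glutamine mean was 3.39 CPM without glutamine replicate 1. The glutamine mean of Tlr4 was 9.58 CPM without glutamine replicate 2 and that of Irf2 52.5 CPM without glutamine replicate 3, while the vehicle mean of Il18 was 19.7 CPM without vehicle replicate 2.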

How the data were processed

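RNA of sorted TECs and PMN was reverse transcribed from poly(A) tails and sequenced as single-end reads of 50 bases. The submitters' processing notes name FastQC, MultiQC, Trim Galore 0.6.4, Salmon 1.0.0, DESeq2 and the mm10 build, and the annotation is not given in the sources used here. The deposited values are Salmon's estimated counts, given by gene symbol and without normalization. The deposited PMN table had been altered by a spreadsheet program: 3.20% of its 605208 values carried extra points and 0.391% had become dates, and these were decoded. The decoded table was treated as estimated counts in the tests. Its 2 columns per library correlated at 0.995 to 0.996 (log2 scale) and were averaged, although 26 to 43 of the 6990 to 8609 genes with a mean of at least 50 counts in a library differed over 2-fold between them, by up to 1811-fold. For the members they differed by at most 5.88% of their mean (values of at least 20 counts).

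Counts were rounded and tested in each cell type with edgeR 4.0.16 in R 4.3.3 (TMM scaling, default expression filter, quasi-likelihood test, Benjamini-Hochberg adjustment over all genes tested, threshold 0.05), over all 6 libraries with treatment as the only term. Intervals are 95% intervals from the fitted error. DESeq2 1.42.0, limma 3.58.1 (voom), other scalings and filters, single PMN columns and fits without each library were the alternatives. The fits were tested on simulated counts, where in PMN edgeR recovered none of the changed genes and DESeq2 called mostly unchanged ones, and where in TECs edgeR missed most of the smaller changes. The members and lists were chosen with earlier results of these data known. All 8 members are named, as are 16 fixed partners and, in each partner list, the gene with the smallest p in each direction, and other partners are named only where a count is small, after their values were seen. Intervals and count limits cover counting or fitted error only. Sequences came from RefSeq on GRCm38.p6, and positions and exon lengths from GENCODE M21, matched by symbol.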

Additional observations from a re-analysis of the deposited data

How the results depend on the processing

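No member passed the adjusted test under any alternative in either cell type. Over the members that passed the main low-count filter, 6 in TECs and 7 in PMN, the lowest adjusted p was 0.397 and 0.833 (edgeR). Over all genes, the count of calls in TECs was 0 under every normalization tried, with limma-voom and with at least 10 counts in every library, but 245 with DESeq2 (75.1% of them higher with glutamine) and 425 without an expression filter (72.7% higher), and it ran from 0 to 36 without 1 library, with 36 without glutamine replicate 2 and 4 without vehicle replicate 5. In PMN it was 304 with DESeq2 and 0 under all other alternatives. Among the partners, chosen after their values were seen, Nlrp6 passed in TECs without an expression filter and Ticam1 passed in PMN with DESeq2, a test whose calls on simulated PMN counts were mostly of unchanged genes. The cause of these shifts was not tested.

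In TECs Ripk1 did not overlap under the other scalings and filters, and its log2 fold change ran from 0.25 to 0.44 without 1 library. The count of members without overlap was 1 to 2 in TECs, where Mlkl joined without glutamine replicate 3, and 0 to 2 in PMN: Ripk1 and Ripk3 without glutamine replicate 2, Ripk1 and Casp1 without vehicle replicate 2, Pycard without glutamine replicate 3 and Nlrp3 without vehicle replicate 3. With 3 libraries against 2 more genes separate, 24.7% to 37.2% in TECs and 18.7% to 20.9% in PMN.

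The sign of 6 fitted values turned, none of them called. Without 1 library, Gsdmd in TECs ran from -0.97 to 0.50 and Pycard in TECs from -2.04 to 0.35. In PMN, Gsdmd ran from -0.97 to 1.44, Nlrp3 from -0.72 to 0.25, Pycard from -0.027 to 0.65 and Casp4 from -0.030 to 0.38. With limma-voom the PMN values were 0.17 for Gsdmd and 0.31 for Nlrp3, and the TEC value of Pycard was -1.99 against -0.26 with edgeR. The cause was not tested. No paired analysis was possible because replicate 3 is the only number that both treatments of TECs have, and PMN libraries are unnumbered in the labels. Small counts limit the TEC values of Nlrp3, Casp1, Ripk3 and Gsdmd, which rest on at most 30 counts a library. They also limit those of Pycard, with 0 to 37 counts a library, and Casp4, with 19 to 53.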
